A study of Homo sapiens with 16 samples.

Results

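The genes described here are 9 genes of MHC class I antigen presentation, HLA-B, HLA-C, HLA-E, HLA-F, B2M, TAP1, TAP2, TAPBP and NLRC5, picked by symbol from a table of 58735 genes. MHC class I molecules pair a heavy chain with β2-microglobulin, the product of B2M, and show peptides from the cell's own proteins to CD8+ T cells and natural killer cells. The peptides are cut by proteasomes, pumped into the endoplasmic reticulum by the transporter made of TAP1 and TAP2, and loaded with the help of tapasin, the product of TAPBP. NLRC5 is a transactivator of class I promoters, NF-κB and IRF factors bind elements of the same promoters, and loss of class I is a known route of immune escape in colorectal cancer.

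The cells were SW620, a line from a lymph node metastasis of a colorectal carcinoma. They carried a hairpin RNA that targets the stress transcription factor ATF4 (shATF4) or a scrambled control hairpin (scramble), and the series asks about ATF4 in chemotherapy resistance. Each line was sequenced as poly(A)-selected RNA, either untreated or exposed for 24 h or 48 h to 5-fluorouracil (5-FU) at 5 µM, an inhibitor of thymidylate synthase. For shATF4 cells there were 3 libraries untreated, 3 after 24 h and 2 after 48 h, and for scramble cells likewise 3, 3 and 2. The 48 h libraries carry a treatment tag of 24 h but are titled 48 h, and the design text has a 48 h arm, so they were taken as 48 h. Each line rests on 1 hairpin, so loss of ATF4 cannot be told apart from an off-target effect or a drift between the lines. The untreated libraries have no stated time and serve both 5-FU times, so drug and time in culture cannot be told apart. The labels do not say that replicates were separate cultures, and the p-values may therefore reflect technical spread only. In bulk RNA, fewer expressing cells and less RNA per cell cannot be told apart.

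Total counts were 14571611 to 17824188 per library. All 9 genes passed the filter on low counts, among 17309 genes tested. ATF4, the hairpin's target, averaged 173.0, 110.0 and 116.1 CPM in shATF4 cells untreated, at 24 h and at 48 h, against 378.3, 278.5 and 332.0 CPM in scramble cells, and its groups did not overlap at any time. CPM here and below are counts scaled by TMM-adjusted library sizes. Of the 16 libraries 2 were unlike the rest of their group, shATF4 24 h replicate 3 with 0.0695% of its counts in RN7SL genes (0.0218% and 0.0234% in replicates 1 and 2) and scramble untreated replicate 2 with 1.42% in mitochondrial mRNAs (0.753% and 0.766% in replicates 1 and 3). Mitochondrial RNA also moved with 5-FU. Mitochondrial rRNA took 1.14% to 1.45% at 24 h and 0.918% to 0.955% at 48 h in shATF4 cells against 0.365% to 0.392% untreated, and 0.881% to 0.955% at 24 h and 0.95% to 1.01% at 48 h in scramble cells against 0.359% to 0.457% untreated. Mitochondrial mRNAs took 1.23% to 1.52% in treated shATF4 libraries against 0.764% to 0.795% untreated, and 1.07% to 1.49% in treated scramble libraries against 0.753% to 1.42% untreated. The part of these shares in the results was not tested. All 9 colon epithelium markers averaged at least 1 CPM in every group. Among 10 leukocyte markers only LYZ, the lysozyme gene, reached 1 CPM, MS4A1 had no counts and PTPRC (CD45) had 4 counts over the 16 libraries. The leukocyte sum moved with 5-FU through LYZ, at 24.6 to 25.1 CPM in shATF4 cells at 48 h against 4.29 to 5.37 CPM untreated, and at 31.1 to 34.3 CPM in scramble cells at 48 h against 3.88 to 4.95 CPM untreated. Of 7 fibroblast and endothelial markers 4 averaged at least 1 CPM, and their sum was 58.8 to 65.1 CPM in shATF4 cells at 48 h against 39 to 42.5 CPM untreated, and 57 to 60.3 CPM in scramble cells at 48 h against 37.3 to 46.7 CPM untreated. By gene, KRT20, a keratin of mature colonocytes, averaged 1.7 CPM in shATF4 cells at 48 h against 10.9 CPM in scramble cells (adjusted p = 7.12e-08), and CDX2, an intestinal transcription factor, averaged 35.2 CPM in shATF4 cells against 17.9 CPM in scramble cells (adjusted p = 0.00015). In scramble cells at 48 h against untreated, KRT20 averaged 10.9 against 1.47 CPM, the cadherin CDH1 374.6 against 189.9 CPM, the microvillus protein VIL1 176.7 against 492.0 CPM, VWF of endothelium 8.29 against 2.12 CPM, PECAM1 4.48 against 1.75 CPM and the collagen COL1A1 15.2 against 11.3 CPM, all called. The COL1A1 call was lost in 10 of 17 fits that left out libraries. CDH1 averaged 240.7 CPM in shATF4 cells at 48 h against 374.6 CPM in scramble cells and VWF 4.19 against 8.29 CPM, both called, and the VWF call was lost in 4 of those 17 fits. The summed epithelial markers stood at 6508.3 to 6969.8 CPM in shATF4 cells at 48 h against 11185.4 to 11754.3 CPM untreated, and at 7325.2 to 7505.7 CPM in scramble cells at 48 h against 11096.0 to 12475.6 CPM untreated. The part of these markers in the results was not tested.

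Of the 9 genes, 7 lie in the MHC on chromosome 6 of GRCh38. HLA-B spans 31269491 to 31357188 on the minus strand in the table's annotation, and HLA-C spans 31268749 to 31272130 on the minus strand, so the annotated end of HLA-B runs across HLA-C. HLA-F (29722775 to 29738528) and HLA-E (30489467 to 30494205) are on the plus strand. TAP2 (32821833 to 32838780), TAP1 (32845209 to 32853978) and TAPBP (33299694 to 33314387) are on the minus strand. B2M is on chromosome 15 (44711487 to 44718877, plus strand) and NLRC5 on chromosome 16 (56989485 to 57083531, plus strand). The counts are sums over the exons of each gene. Other genes' exons cover 32.3% of the exon bases of TAP2, 28.5% of HLA-F, 18.9% of HLA-B, 9.49% of TAP1, 1.4% of HLA-C and 0% of HLA-E, B2M, TAPBP and NLRC5. The sources used here give no strand setting for the counting, so reads there cannot be assigned to one gene with certainty. The antisense partner of HLA-F, HLA-F-AS1, averaged 3.7 CPM in shATF4 cells at 48 h against 1.49 CPM untreated, and 4.68 CPM in scramble cells at 48 h against 2.14 CPM untreated. HLA-F itself averaged less in each of these groups. Its means were 3.31 and 0.695 CPM in shATF4 cells at 48 h and untreated, and 3.37 and 0.974 CPM in scramble cells.

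Promoters are shown because class I genes share regulatory elements, and their part in the 5-FU changes was not tested. RefSeq windows of GRCh38.p14 with 250 bases before the annotated start were found for 7 of the 9 genes, 8 windows in all because TAP1 has 2 starts. Capitals mark matches to the κB consensus and to the IRF core AANNGAAA, each searched on both strands. The windows are HLA-B at chr6:31357180-31357429 (minus strand), HLA-C at chr6:31272093-31272342 (minus), B2M at chr15:44711267-44711516 (plus), TAP1 at chr6:32853705-32853954 (minus) and TAPBP at chr6:33314079-33314328 (minus), all written 5′ to 3′.
HLA-B: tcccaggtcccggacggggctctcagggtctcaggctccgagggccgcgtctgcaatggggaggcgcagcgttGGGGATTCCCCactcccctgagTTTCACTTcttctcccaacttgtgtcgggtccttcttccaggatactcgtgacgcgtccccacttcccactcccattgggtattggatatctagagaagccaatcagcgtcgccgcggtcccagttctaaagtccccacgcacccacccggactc
HLA-C: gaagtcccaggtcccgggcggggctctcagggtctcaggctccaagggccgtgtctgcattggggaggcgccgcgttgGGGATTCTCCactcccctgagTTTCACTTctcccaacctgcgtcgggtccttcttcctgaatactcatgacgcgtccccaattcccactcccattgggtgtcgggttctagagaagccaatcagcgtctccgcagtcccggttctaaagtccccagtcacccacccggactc
B2M: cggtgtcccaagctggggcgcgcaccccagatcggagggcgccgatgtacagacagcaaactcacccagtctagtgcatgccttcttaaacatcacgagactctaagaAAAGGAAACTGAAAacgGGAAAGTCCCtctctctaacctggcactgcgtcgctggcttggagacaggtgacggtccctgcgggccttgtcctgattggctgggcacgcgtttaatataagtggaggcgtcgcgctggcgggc
TAP1: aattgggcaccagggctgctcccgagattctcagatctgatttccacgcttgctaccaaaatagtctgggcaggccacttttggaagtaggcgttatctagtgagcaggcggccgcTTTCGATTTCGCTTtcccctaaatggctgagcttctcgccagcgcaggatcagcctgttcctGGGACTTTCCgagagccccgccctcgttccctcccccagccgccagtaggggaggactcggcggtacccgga
TAPBP: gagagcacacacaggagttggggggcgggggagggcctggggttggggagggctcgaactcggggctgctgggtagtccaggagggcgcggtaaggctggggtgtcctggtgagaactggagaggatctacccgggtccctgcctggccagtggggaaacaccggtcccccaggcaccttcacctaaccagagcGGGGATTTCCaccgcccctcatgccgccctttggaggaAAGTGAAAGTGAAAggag

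A κB match was found in 5 of the 8 windows, against 9.96% of 35116 windows of all genes, and an IRF core in 7 of the 8, against 20.3%. The 5 windows with a κB match are the ones printed above. The windows of HLA-F, of TAP2 and of the other TAP1 start had no κB match and are not printed. In HLA-B overlapping κB matches on both strands span the run GGGGATTCCCC at 177 to 167 bases before the start, and 11 of all windows hold that run on either strand (0.0313%). That run was read from the HLA-B window itself, so HLA-B is one of the 11 and its match tests nothing. HLA-C had a κB consensus match at 172 to 163 bases before the start but not that run. The HLA-B and HLA-C windows were identical at 226 of 246 aligned bases (91.9%). TAP1 and TAPBP had a κB match at 72 to 63 and at 56 to 47 bases before the start. The IRF core occurred as a pair of matches that share bases in B2M, in TAP1, in TAP2 and in TAPBP, and as a lone match downstream of the κB position in HLA-B and HLA-C. CCAAT occurred in 5 of the 8 windows (32% of all) and TGACG, the core of the cyclic AMP response element, in 4 of the 8 (21.2% of all). The composite element of ATF4 and C/EBP factors, searched as TGATGNAA, had no match in the 8 windows and matched 3.14% of all windows. A match describes letters in the reference genome, not binding.

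**Figure D1:**
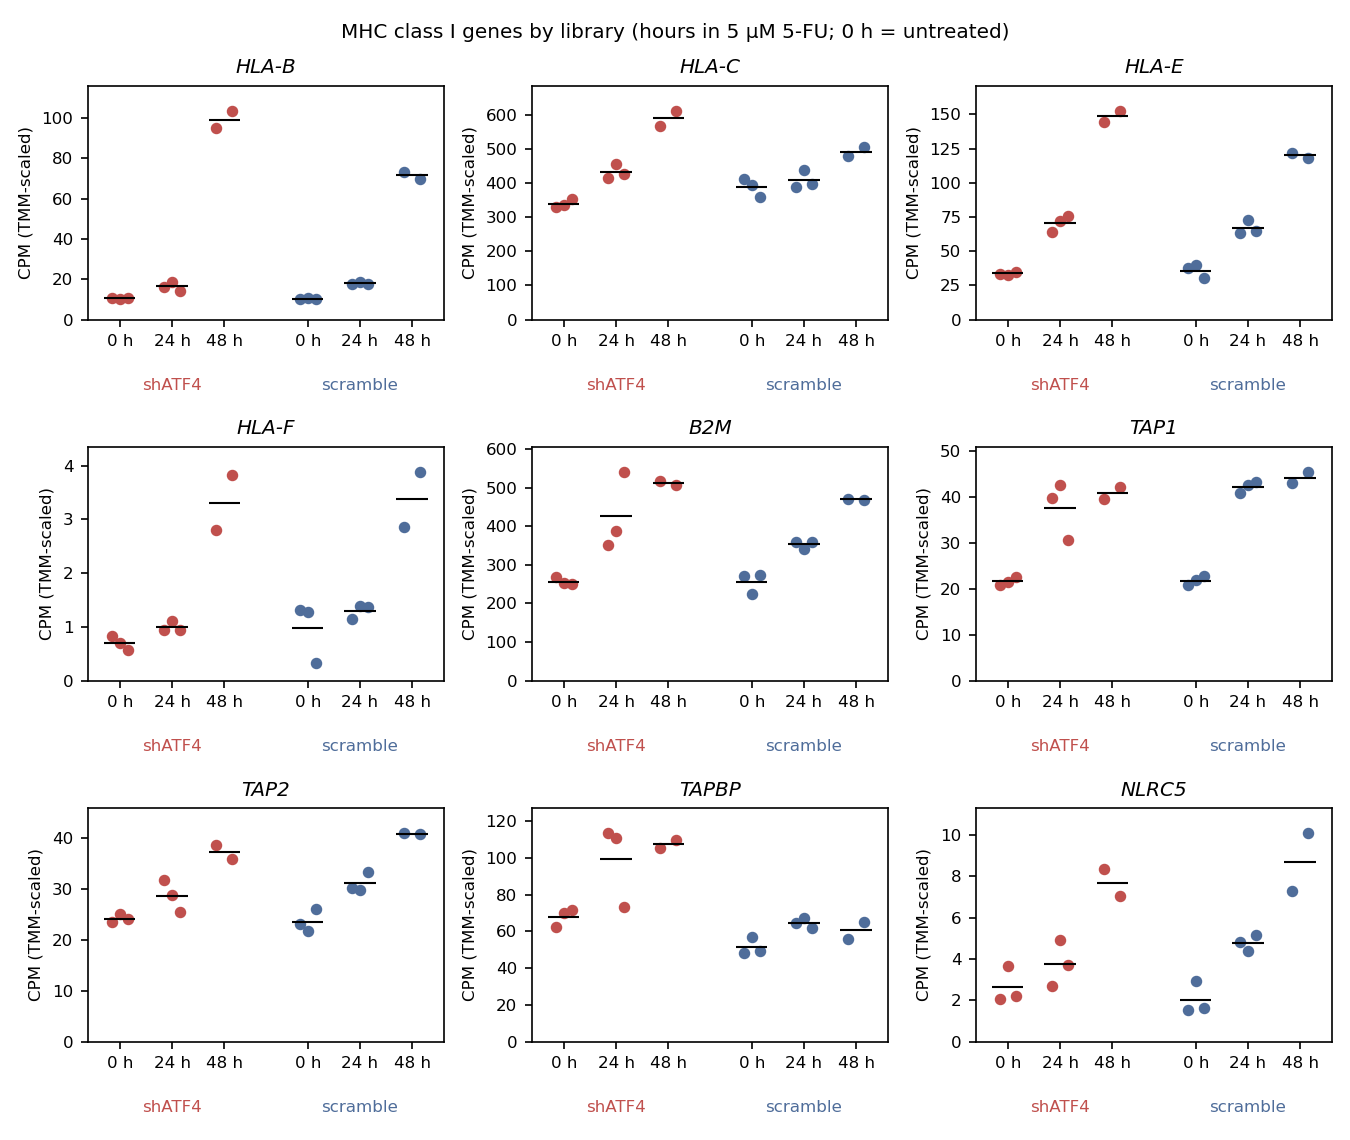
Levels of the 9 genes in each library, in TMM-scaled CPM (y axis from 0) over hours in 5 µM 5-FU (x axis), with shATF4 libraries on the left of each panel and scramble libraries on the right. Points are libraries and bars are group means; HLA-B reached 95 and 103.5 CPM in shATF4 cells at 48 h, and TAPBP was lower in all 8 scramble libraries than in any 48 h shATF4 library.

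Class I expression was higher after 5-FU in both lines, and at 48 h far more for some heavy chains than for others. After 24 h, 7 of the 9 genes rose in shATF4 cells and 7 of 9 in scramble cells and none fell. Of all tested genes 44.4% were called in shATF4 cells at 24 h (23.2% higher) and 44% in scramble cells (21.8% higher). After 48 h, 9 of 9 rose in shATF4 cells, where 58.3% of all genes were called (29.6% higher), and 8 of 9 rose in scramble cells, where 60.7% were called (30.6% higher). The median log2 change of the 9 genes at 48 h was 1.0 in shATF4 cells and 1.02 in scramble cells, against 0.03 over all tested genes in each line. Of the 9 genes, 4 rose at least 2-fold at 48 h in shATF4 cells and 5 in scramble cells. B2M, which rounds to 2-fold in shATF4 cells, lay just under that cutoff. The share of all genes that rose at least 2-fold was not counted, so these counts have no background. Calls needed an adjusted p under 0.05 (edgeR, quasi-likelihood, Benjamini-Hochberg over all 17309 genes), and every adjusted p given below comes from that fit unless DESeq2, the authors' deposited table or a change of settings is named. Errors of log2 changes are standard errors derived from the change and its F statistic in that fit of all 16 libraries. They are not the spread of the compared libraries alone. Those were 3 against 3 libraries at 24 h and 2 against 3 at 48 h.

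HLA-B, a classical heavy chain that presents peptides to CD8+ T cells, had the largest response of the 9 genes at 48 h. In shATF4 cells HLA-B stood at 10.8, 10.4 and 10.8 CPM untreated, at 16.4, 18.7 and 14.4 CPM after 24 h and at 95 and 103.5 CPM after 48 h. In scramble cells it stood at 10.2, 10.9 and 10 CPM untreated, at 17.4, 18.7 and 17.8 CPM after 24 h and at 73.1 and 70 CPM after 48 h. In each line no library of a later time overlapped an earlier one, and most of the increase came in the second day. At 48 h HLA-B was 9.31-fold higher in shATF4 cells (log2 change 3.22 ± 0.10, adjusted p = 1.3e-15) and 6.89-fold higher in scramble cells (2.78 ± 0.10, adjusted p = 6.25e-15) than untreated. At 24 h it was 1.54-fold higher in shATF4 cells (0.62 ± 0.10, adjusted p = 3.85e-05) and 1.73-fold in scramble cells (0.79 ± 0.10, adjusted p = 1.94e-06).

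HLA-C, the other classical heavy chain measured here and a ligand of killer-cell immunoglobulin-like receptors, had the highest FPKM of the 9 genes and rose less than HLA-B. Its shATF4 libraries had 330.1, 335.6 and 354.0 CPM untreated, 416.2, 455.9 and 425.6 CPM at 24 h and 568.0 and 611.3 CPM at 48 h. Its scramble libraries had 410.8, 395.7 and 359.0 CPM untreated, 388.8, 439.8 and 397.0 CPM at 24 h and 478.1 and 505.9 CPM at 48 h. The times did not overlap in shATF4 cells, while in scramble cells the 24 h libraries overlapped the untreated ones. HLA-C rose 1.73-fold at 48 h in shATF4 cells (0.79 ± 0.07, adjusted p = 1.34e-08) and 1.27-fold in scramble cells (0.34 ± 0.07, adjusted p = 0.000519). At 24 h it rose in shATF4 cells (0.35 ± 0.07, adjusted p = 0.000283), and in scramble cells the change was 0.07 ± 0.07 (adjusted p = 0.408).

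HLA-E, a non-classical heavy chain read by the NKG2A and NKG2C receptors of natural killer cells, rose at both times in both lines. In shATF4 cells it had 32.9 to 34.7 CPM in the 3 untreated libraries, 64.1, 71.7 and 75.4 CPM at 24 h and 144.4 and 152.4 CPM at 48 h. In scramble cells it had 37.6, 39.8 and 30.1 CPM untreated, 63.1, 72.7 and 64.8 CPM at 24 h and 121.7 and 118.1 CPM at 48 h. Unlike HLA-B, HLA-E had already gained much of its change at 24 h, by 1.06 ± 0.09 in shATF4 cells (adjusted p = 1.47e-08) and 0.90 ± 0.09 in scramble cells (adjusted p = 1.25e-07). At 48 h the changes were 2.14 ± 0.10 (4.4-fold, adjusted p = 4.3e-13) in shATF4 cells and 1.74 ± 0.10 (3.34-fold, adjusted p = 5.88e-12) in scramble cells.

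HLA-F, a non-classical heavy chain found mostly inside the cell, had 5 to 70 counts per library. It stood at 0.573 to 0.82 CPM untreated, 0.932 to 1.11 CPM at 24 h and 2.8 to 3.82 CPM at 48 h in shATF4 cells. In scramble cells it stood at 0.335 to 1.32 CPM untreated, 1.15 to 1.38 CPM at 24 h and 2.86 to 3.88 CPM at 48 h. The 48 h libraries were above all others in each line. HLA-F rose by 2.24 ± 0.36 at 48 h in shATF4 cells (adjusted p = 2.24e-05) and by 1.79 ± 0.35 in scramble cells (adjusted p = 0.000148), and was not called at 24 h in either line (adjusted p = 0.33 and 0.371).

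The unequal changes shifted the makeup of the heavy chain RNA, which was compared per length with the authors' FPKM. Of the summed FPKM of HLA-B, HLA-C, HLA-E and HLA-F, HLA-B took 2.26% to 2.41% in untreated shATF4 libraries and 10.1% and 10.3% at 48 h. In scramble cells its share was 1.85% to 2.1% untreated and 8.65% and 9.35% at 48 h. HLA-E took 7.44% to 7.69% untreated and 15.5% and 15.8% at 48 h in shATF4 cells, and 6.45% to 7.65% untreated and 15% and 16% at 48 h in scramble cells. The share of HLA-C was 89.8% to 90.2% untreated and 73.8% and 73.9% at 48 h in shATF4 cells, and 90.1% to 91.4% untreated and 74.4% and 76.1% at 48 h in scramble cells. HLA genes are highly polymorphic, and the sources used here give no account of how reads of this line's alleles were aligned, so shares between genes are less secure than changes within a gene.

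**Figure D2:**
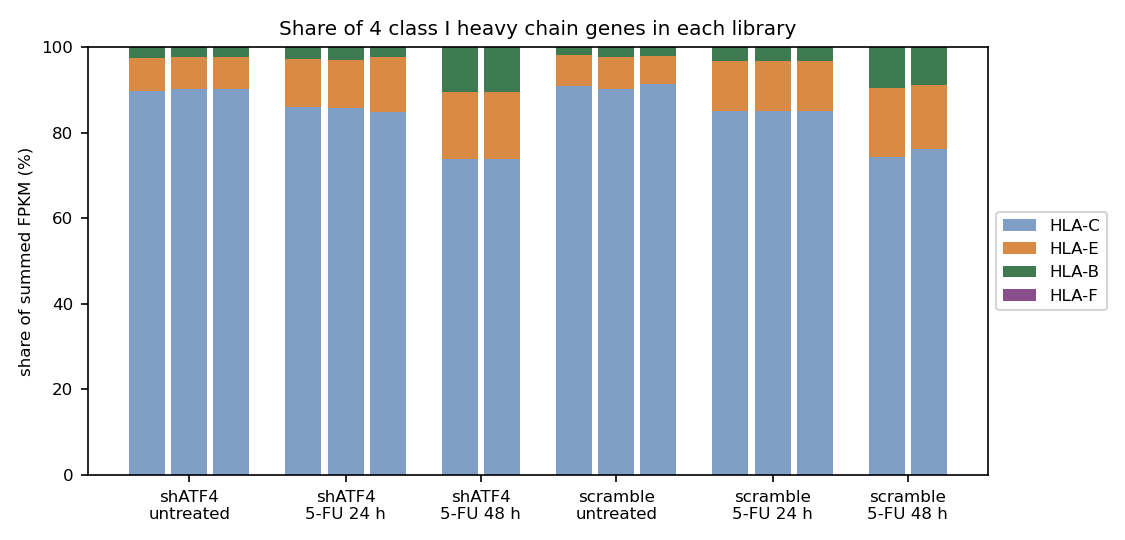
Share of HLA-C, HLA-E, HLA-B and HLA-F in their summed FPKM (y axis, percent, from 0 to 100), 1 bar per library, with shATF4 groups left of scramble groups and untreated, 24 h and 48 h in order. The HLA-B share was 2.26% to 2.41% in untreated shATF4 libraries and 10.1% and 10.3% at 48 h; HLA-F, at 0.0492% to 0.336%, is too thin to see.

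B2M, the light chain shared by all class I heavy chains, rose at both times in both lines. In shATF4 cells it had 268.7, 252.0 and 250.2 CPM untreated, 352.5, 388.1 and 541.1 CPM at 24 h and 517.9 and 507.9 CPM at 48 h. In scramble cells it had 271.8, 223.7 and 274.2 CPM untreated, 358.9, 342.5 and 359.1 CPM at 24 h and 471.2 and 469.3 CPM at 48 h. The high 24 h value of 541.1 CPM belongs to shATF4 replicate 3, the library with more RN7SL, and it lies above both 48 h libraries. B2M was 2-fold higher at 48 h in shATF4 cells (1.0 ± 0.12 on the log2 scale, adjusted p = 4.15e-07) and 1.83-fold higher in scramble cells (0.87 ± 0.12, adjusted p = 2.2e-06). At 24 h it rose by 0.73 ± 0.11 in shATF4 cells (adjusted p = 1.47e-05; 0.53 without replicate 3) and by 0.46 ± 0.11 in scramble cells (adjusted p = 0.00164).

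The transporter genes reached their level at different times. TAP1 had 20.7, 21.4 and 22.6 CPM in untreated shATF4 cells, 39.8, 42.6 and 30.5 CPM at 24 h and 39.6 and 42.1 CPM at 48 h. In scramble cells TAP1 had 20.7, 21.9 and 22.7 CPM untreated, 40.9, 42.5 and 43.3 CPM at 24 h and 43 and 45.4 CPM at 48 h. TAP1 was thus near its 48 h level at 24 h, with the low shATF4 value of 30.5 CPM again from replicate 3. In shATF4 cells TAP1 rose by 0.80 ± 0.10 in the first day (adjusted p = 2.23e-06) and stood 0.92 ± 0.11 above untreated cells after the second (adjusted p = 4.38e-07). In scramble cells the values were 0.96 ± 0.10 (adjusted p = 1.86e-07) for 24 h and 1.02 ± 0.11 (adjusted p = 8.57e-08) for 48 h. TAP2 ran at 23.4 to 25 CPM untreated, 25.4 to 31.6 CPM at 24 h and 35.9 to 38.6 CPM at 48 h in shATF4 cells, and at 21.6 to 25.9 CPM untreated, 29.7 to 33.2 CPM at 24 h and 40.7 to 40.9 CPM at 48 h in scramble cells. The times did not overlap for TAP2 in either line, and at 48 h it rose by 0.63 ± 0.10 in shATF4 cells (adjusted p = 2.23e-05) and 0.80 ± 0.10 in scramble cells (adjusted p = 8.78e-07). At 24 h TAP2 rose by 0.40 ± 0.09 in scramble cells (adjusted p = 0.00159). Its call at 24 h in shATF4 cells (0.24 ± 0.09, adjusted p = 0.0442) was lost without any 1 of 13 libraries, down to 0.15 (adjusted p = 0.262) without 24 h replicate 1.

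TAPBP, whose product tapasin bridges the heavy chain and TAP, stood higher in shATF4 cells than in scramble cells during 5-FU. Its shATF4 libraries had 62.6, 69.7 and 71.6 CPM untreated, 113.5, 110.6 and 73.4 CPM at 24 h and 105.4 and 109.8 CPM at 48 h. Its scramble libraries had 48.2, 56.9 and 49.3 CPM untreated, 64.7, 67.2 and 61.6 CPM at 24 h and 55.9 and 65.2 CPM at 48 h. The shATF4 libraries at 24 h and 48 h all lay above every scramble library, with replicate 3 at 24 h, at 73.4 CPM, nearest to them. TAPBP rose in shATF4 cells by 0.54 ± 0.12 at 24 h (adjusted p = 0.000878; 0.72 without replicate 3) and by 0.66 ± 0.13 at 48 h (adjusted p = 0.000187). In scramble cells it rose by 0.33 ± 0.12 at 24 h (adjusted p = 0.0351), which no longer passed on leaving out untreated replicate 1 or 3 or 24 h replicate 1 or 2 (adjusted p = 0.123, 0.102, 0.0759 and 0.0981). At 48 h the scramble change was 0.23 ± 0.14 (adjusted p = 0.142), and it passed under upper-quartile scaling (0.38, adjusted p = 0.0218), in a fit of only the groups compared (0.26, adjusted p = 0.0433) and without shATF4 24 h replicate 3 (0.23, adjusted p = 0.021).

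NLRC5, the transactivator of class I promoters, was a low transcript with 21 to 172 counts per library. In shATF4 cells it had 2.05, 3.67 and 2.22 CPM untreated, 2.68, 4.91 and 3.73 CPM at 24 h and 8.34 and 7.05 CPM at 48 h. In scramble cells it had 1.54, 2.92 and 1.61 CPM untreated, 4.83, 4.4 and 5.15 CPM at 24 h and 7.3 and 10.1 CPM at 48 h. The shATF4 libraries at 24 h overlapped the untreated ones, and the scramble libraries at 24 h did not. NLRC5 rose 2.9-fold at 48 h in shATF4 cells (1.54 ± 0.27, adjusted p = 4.84e-05) and 4.25-fold in scramble cells (2.09 ± 0.27, adjusted p = 1.29e-06). At 24 h it rose in scramble cells (1.23 ± 0.27, adjusted p = 0.000864) and stood at 0.50 ± 0.27 in shATF4 cells (adjusted p = 0.138). The difference between those 24 h responses was -0.73 ± 0.38 and did not pass (adjusted p = 0.32).

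**Figure D3:**
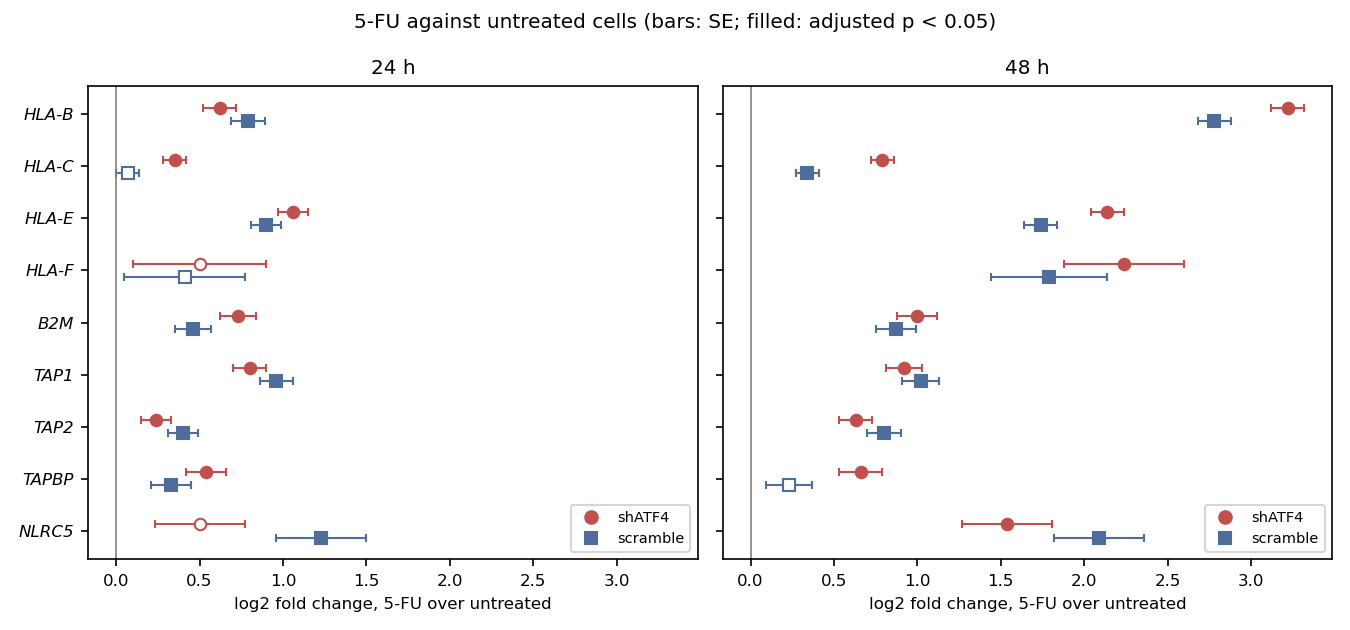
Log2 fold change of the 9 genes, 5-FU over untreated (x axis), at 24 h on the left and 48 h on the right, for shATF4 cells (circles) and scramble cells (squares), with standard errors as bars and filled symbols where the adjusted p is under 0.05. HLA-B stands farthest right at 48 h, at 3.22 in shATF4 cells and 2.78 in scramble cells, and TAPBP in scramble cells, at 0.23, is the open symbol at 48 h.

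Between 24 h and 48 h of 5-FU, 6 of the 9 genes rose in shATF4 cells, where 48.2% of all genes were called (23.7% higher), and 7 rose in scramble cells, where 38.3% were called (18.8% higher). HLA-B rose 6.04-fold in shATF4 cells (2.59 ± 0.09, adjusted p = 7.36e-14) and 3.99-fold in scramble cells (2.0 ± 0.09, adjusted p = 3.72e-12). HLA-E rose by 1.08 ± 0.10 in shATF4 cells (adjusted p = 2.13e-08) and 0.84 ± 0.10 in scramble cells (adjusted p = 9.12e-07). TAP1 stood at 0.12 ± 0.11 in shATF4 cells (adjusted p = 0.375) and 0.07 ± 0.11 in scramble cells (adjusted p = 0.667), and TAPBP at 0.12 ± 0.13 (adjusted p = 0.472) and -0.09 ± 0.13 (adjusted p = 0.631). Without shATF4 24 h replicate 3 the B2M change in shATF4 cells passed (0.47, adjusted p = 2.22e-05, against 0.26 and 0.0752 with it), and TAP1 and TAPBP stood at -0.01 and -0.06. Without scramble 48 h replicate 2 the 7 calls in scramble cells became 3, with HLA-C, HLA-F, B2M and NLRC5 at adjusted p = 0.13, 0.0571, 0.0633 and 0.184.

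Per annotated length, HLA-C ranked highest in untreated shATF4 cells with 132.6 FPKM, followed by B2M at 41.3, TAPBP at 13.1 and HLA-E at 11.1 FPKM. The annotated lengths count all exon bases of a gene, 2507 for HLA-C, 6079 for B2M and 12386 for NLRC5. The transcripts expressed may be shorter, so the order between genes depends on the annotation. In CPM, HLA-C averaged 339.9 and B2M 257.0 in these cells. TAP1 (4.39 FPKM), TAP2 (3.7 FPKM) and HLA-B (3.42 FPKM) came next, and NLRC5 (0.209 FPKM) and HLA-F (0.156 FPKM) were lowest. Among neighbours in that order the libraries of NLRC5 (0.162 to 0.289 FPKM) and HLA-F (0.129 to 0.185 FPKM) overlapped, and the other neighbours did not. After 48 h in the same cells the order was HLA-C at 233.5, B2M at 83.7, HLA-E at 49.5, HLA-B at 32.3, TAPBP at 21.1, TAP1 at 8.44, TAP2 at 5.79, HLA-F at 0.757 and NLRC5 at 0.617 FPKM. HLA-B thereby stood above TAPBP, TAP1 and TAP2, all of which it had lain below in untreated cells. In scramble cells HLA-B had 3.35 FPKM untreated and 23.4 FPKM at 48 h, against 10 and 12 FPKM of TAPBP.

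The comparison of shATF4 with scramble cells asks how far the ATF4 hairpin line differed in these genes before and during 5-FU. In untreated cells none of the 9 was called, where 2.92% of all genes were. The share of all genes at an unadjusted p under 0.05 was not counted, and 2 of the 9 had such a p. These were TAPBP (0.40 ± 0.12, adjusted p = 0.0893) and HLA-C (-0.19 ± 0.07, adjusted p = 0.16). The untreated TAPBP difference passed in 4 alternatives with edgeR given in the closing section and without shATF4 24 h replicate 3 (adjusted p = 0.00227), and not with DESeq2 (adjusted p = 0.0564). After 24 h, 1 of the 9 was called, TAPBP, 1.54-fold higher in shATF4 cells (0.62 ± 0.12, adjusted p = 0.0011), where 20.4% of all genes were called (10.5% higher). Without shATF4 24 h replicate 3 that TAPBP difference was 0.80 (adjusted p = 4.82e-07). B2M stood at 0.27 ± 0.11 (adjusted p = 0.0782), and at 0.07 (adjusted p = 0.558) without that library.

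After 48 h, 3 of the 9 were called, all higher in shATF4 cells, where 9.45% of all genes were called (3.92% higher). TAPBP was 1.78-fold higher, at 105.4 and 109.8 CPM in shATF4 cells against 55.9 and 65.2 CPM in scramble cells (0.83 ± 0.15, 2 against 2 libraries, adjusted p = 0.000803). HLA-B was 1.39-fold higher, at 95 and 103.5 CPM in shATF4 cells against 73.1 and 70 CPM in scramble cells (0.47 ± 0.10, adjusted p = 0.00368). HLA-C was 1.2-fold higher, at 568.0 and 611.3 CPM in shATF4 cells against 478.1 and 505.9 CPM in scramble cells (0.26 ± 0.08, adjusted p = 0.049995). In none of the 3 did the lines overlap, but neither did they in HLA-E, B2M, TAP1 and TAP2, which were not called. Of these, TAP1 and TAP2 were lower in shATF4 cells. The share of all genes without overlap was not counted. The HLA-B call was lost without shATF4 48 h replicate 2 (adjusted p = 0.0637) or scramble 48 h replicate 2 (0.0651). The HLA-C call lay at the threshold and was lost without any 1 of 11 libraries, with adjusted p up to 0.288. HLA-E stood at 0.31 ± 0.11 (adjusted p = 0.0707), and it passed without any 1 of 4 libraries (adjusted p = 0.0284 to 0.049) and in a fit of only the groups compared (adjusted p = 0.00621). TAP1 (-0.11), TAP2 (-0.13), NLRC5 (-0.18) and HLA-F (-0.02) stood slightly below 0 and were not called.

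An interaction contrast, the 5-FU response of shATF4 cells minus that of scramble cells, tested the difference in response itself. At 24 h none of the 9 was called, where 2.13% of all genes were, and 1 of the 9, HLA-C, had an unadjusted p under 0.05 (0.28 ± 0.10, adjusted p = 0.124). At 48 h HLA-C was called, 0.45 ± 0.11 (adjusted p = 0.0228), where 2.74% of all genes were called (1.3% higher). Of the 9 genes, 4 had an unadjusted p under 0.05 there. The share of all genes under that unadjusted threshold was not counted at 24 h or 48 h, so these counts have no background. HLA-B (0.43 ± 0.14, adjusted p = 0.121), HLA-E (0.40 ± 0.14, adjusted p = 0.156) and TAPBP (0.43 ± 0.19, adjusted p = 0.27) had values of like size that did not pass. The HLA-C call was lost without any 1 of 6 libraries, with adjusted p up to 0.137. B2M stood at 0.12 ± 0.17, TAP1 at -0.10 ± 0.16, TAP2 at -0.17 ± 0.15 and NLRC5 at -0.55 ± 0.39. Without shATF4 24 h replicate 3 the 24 h difference of TAPBP passed (0.40, adjusted p = 0.0485).

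**Figure D4:**
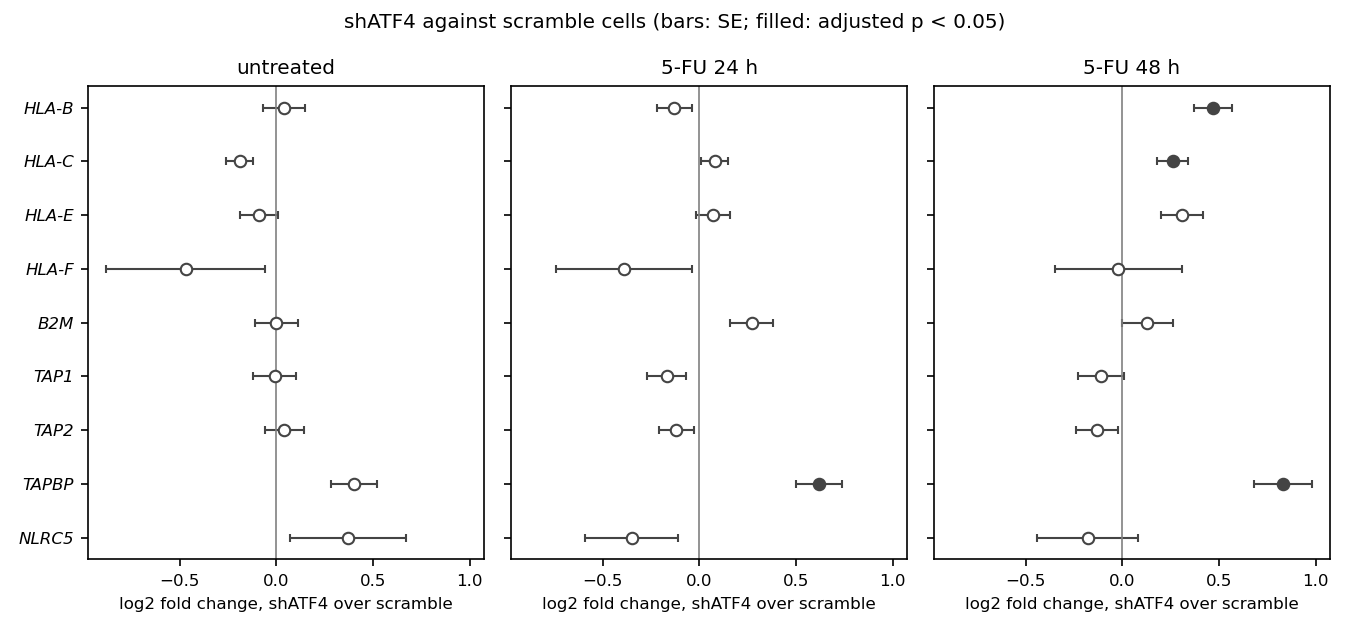
Log2 fold change of the 9 genes, shATF4 over scramble (x axis), in untreated cells, after 24 h and after 48 h of 5-FU (left to right), with standard errors as bars and filled points where the adjusted p is under 0.05. TAPBP lies at 0.40, 0.62 and 0.83 in the 3 panels, and HLA-B and HLA-C are filled at 48 h at 0.47 and 0.26.

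The genes around the 9 in the pathway did not all move with them. The counts of each list at 48 h stand beside the shares of all genes called. Those were 58.3% in shATF4 cells (29.6% higher) and 60.7% in scramble cells (30.6% higher). Of 5 immunoproteasome and PA28 genes, which shape and activate the peptide-cutting proteasome, 3 rose at 48 h in shATF4 cells and 3 rose and 1 fell in scramble cells, with medians of 0.50 and 0.41. PSMB9, an immunoproteasome subunit encoded beside TAP1, averaged 12.5 CPM in shATF4 cells at 48 h against 1.3 CPM untreated (3.26 ± 0.22, adjusted p = 9.42e-11). In scramble cells PSMB9 averaged 9.31 CPM at 48 h against 1.37 CPM untreated (2.75 ± 0.22, adjusted p = 1.07e-09). PSMB8, another immunoproteasome subunit encoded in the MHC, rose by 1.33 ± 0.12 in shATF4 cells and 1.26 ± 0.12 in scramble cells. PSME1, a subunit of the PA28 activator, stood at -0.21 ± 0.09 in shATF4 cells (adjusted p = 0.0666) and fell by 0.78 on the log2 scale in scramble cells (adjusted p = 5.51e-07), and this difference between the lines passed (0.58 ± 0.13, adjusted p = 0.0215). The constitutive catalytic subunits fell, 2 of 3 in shATF4 cells and 3 of 3 in scramble cells, as PSMB7 fell by 0.85 in shATF4 cells and by 0.91 in scramble cells on the log2 scale. PSMB6 fell by 0.60 and PSMB5 stood at -0.29 (adjusted p = 0.0528) in shATF4 cells. In scramble cells PSMB6 fell by 0.52 and PSMB5 by 0.35 on the log2 scale, and PSMB5 was not called there under upper-quartile scaling (-0.20, adjusted p = 0.167) or without untreated replicate 1 or either 48 h library.

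Peptide loading and trimming genes were mostly lower at 48 h. Of 8 such genes 2 rose and 5 fell in each line, with medians of -0.36 in shATF4 cells and -0.47 in scramble cells, against 0.03 over all genes. Among all genes 58.3% were called in shATF4 cells (29.6% higher) and 60.7% in scramble cells (30.6% higher). The loading chaperone calreticulin, CALR, averaged 544.3 CPM in shATF4 cells at 48 h against 787.5 CPM untreated (-0.53 ± 0.08, adjusted p = 9e-06), and 467.8 CPM in scramble cells at 48 h against 872.9 CPM untreated (-0.90 ± 0.08, adjusted p = 6.6e-09). LNPEP, a peptide-trimming aminopeptidase of endosomes, fell by 0.58 in shATF4 cells and 0.77 in scramble cells on the log2 scale. TAPBPL, the tapasin-related peptide editor, rose by 0.53 ± 0.14 in shATF4 cells and 0.79 ± 0.14 in scramble cells.

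Transcription factors and regulators that bind class I promoters were called in both directions, 6 of 18 higher and 6 lower at 48 h in shATF4 cells and 8 higher and 7 lower in scramble cells. In shATF4 cells these counts are near the shares over all genes (58.3% called, 29.6% higher), and in scramble cells 60.7% of all genes were called (30.6% higher). Under upper-quartile scaling the shATF4 split was 6 higher and 2 lower. IRF7, an interferon-responsive factor, averaged 31.9 CPM in shATF4 cells at 48 h against 6.86 CPM untreated (2.22 ± 0.15, adjusted p = 1.12e-10), and 33 CPM in scramble cells at 48 h against 8.11 CPM untreated (2.03 ± 0.15, adjusted p = 2.39e-10). STAT2, which carries interferon signals to the nucleus, rose by 0.94 ± 0.11 in shATF4 cells and 0.82 ± 0.11 in scramble cells. CIITA, the class II transactivator, stood at 0.48 ± 0.36 in shATF4 cells (adjusted p = 0.261) and 0.94 ± 0.38 in scramble cells (adjusted p = 0.0393), a call lost in 3 of 17 fits that left out libraries and in 4 of 6 other alternatives. IRF1, a factor that binds the IRF element of class I promoters and is named here after its values were seen, rose by 0.73 ± 0.11 in shATF4 cells and 0.75 ± 0.11 in scramble cells. Among interferon receptors and their kinases 6 of 9 rose and none fell at 48 h in each line, JAK2 by 1.01 ± 0.19 in shATF4 cells and 0.97 ± 0.18 in scramble cells. The type III interferon receptor IFNLR1 rose by 0.96 ± 0.15 in shATF4 cells and 0.76 ± 0.15 in scramble cells, and the kinase TYK2 by 0.63 ± 0.10 in shATF4 cells and 0.54 ± 0.10 in scramble cells. No interferon of the 7 listed passed the filter. IFNB1 and IFNG had no counts in any of the 16 libraries, IFNL1 had 1 count in all, and IFNE had 54.

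**Figure D5:**
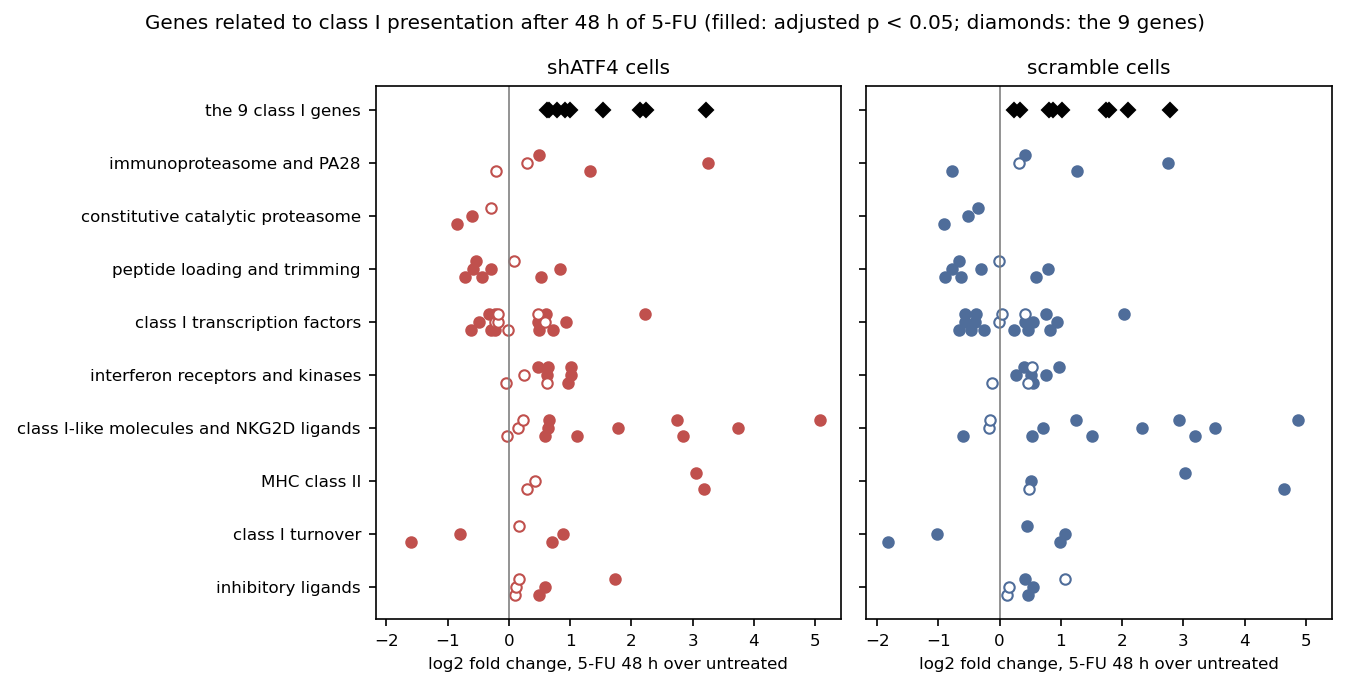
Log2 fold change at 48 h of 5-FU over untreated (x axis) for the 9 genes (diamonds) and each tested gene of 9 related lists (circles, filled where the adjusted p is under 0.05), in shATF4 cells on the left and scramble cells on the right. The 9 genes run from 0.63 to 3.22 in shATF4 cells and from 0.23 to 2.78 in scramble cells, while the constitutive proteasome genes lie below 0 in both.

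Class I-like molecules were counted together with NKG2D ligands, and only the latter are stress-induced surface proteins that activate natural killer cells. Of 12 tested genes in this list 9 rose at 48 h in shATF4 cells, with none lower, and 9 rose in scramble cells, with 1 lower. The medians were 0.88 and 1.38. Among all genes 58.3% were called in shATF4 cells (29.6% higher) and 60.7% in scramble cells (30.6% higher). RAET1E had 38 counts in shATF4 cells at 48 h and 1 count untreated, a ratio of 44.8 (95% exact binomial interval 7.57 to 1.82e+03 for counting error only). In scramble cells RAET1E had 75 counts at 48 h and 3 untreated, a ratio of 32.5 (10.7 to 161). RAET1G rose by 3.74 ± 0.44 in shATF4 cells and 3.51 ± 0.44 in scramble cells over untreated means of 0.164 CPM in shATF4 cells and 0.182 CPM in scramble cells. PROCR, the endothelial protein C receptor, which has a class I-like fold, rose by 2.74 ± 0.28 in shATF4 cells and 3.19 ± 0.26 in scramble cells. In shATF4 against scramble cells at 48 h, MICA was higher (0.60 ± 0.15, adjusted p = 0.0114), while ULBP1 (-0.65 ± 0.20, adjusted p = 0.0436) and RAET1L (-0.53 ± 0.16, adjusted p = 0.0368) were lower. Those calls were lost in 2, 11 and 4 of 17 fits that left out libraries, for MICA, ULBP1 and RAET1L.

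Of 12 MHC class II genes 4 were tested, and 2 rose at 48 h in shATF4 cells and 3 in scramble cells. Over all genes 29.6% rose in shATF4 cells and 30.6% in scramble cells, the shares for the pseudogene counts below as well. CD74, the class II invariant chain, averaged 1.97 CPM in shATF4 cells at 48 h against 0.213 CPM untreated (3.19 ± 0.57, adjusted p = 6.47e-05), and 2.46 CPM in scramble cells at 48 h against 0.0911 CPM untreated (4.65 ± 0.64, adjusted p = 2.36e-06). HLA-DQB1, a class II chain, averaged 10.1 CPM in shATF4 cells at 48 h against 1.22 CPM untreated and 7.91 CPM in scramble cells at 48 h against 0.97 CPM untreated. HLA-DMA, a class II peptide loader, stood at 0.43 ± 0.20 in shATF4 cells (adjusted p = 0.0768) and 0.51 ± 0.20 in scramble cells (adjusted p = 0.0355), the second lost without untreated replicate 1 or 48 h replicate 1. Of 5 tested class I pseudogenes, whose reads can be shared with the coding genes, 3 rose in shATF4 cells and 2 in scramble cells. HLA-K rose by 0.91 ± 0.22 in shATF4 cells and 1.82 ± 0.22 in scramble cells. HLA-V had 15 counts in shATF4 cells at 48 h and 2 untreated (ratio 8.85, 2.06 to 79.7), a call lost in 3 of 17 fits that left out libraries (adjusted p up to 0.547), and 43 counts in scramble cells at 48 h and 1 untreated (ratio 55.9, 9.5 to 2.26e+03).

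Genes that lower class I at the surface also split. SUSD6, part of a complex that sends class I molecules to lysosomes, rose by 0.71 ± 0.09 in shATF4 cells and 1.06 ± 0.09 in scramble cells at 48 h. Its partner WWP2, a ubiquitin ligase, fell by 0.80 in shATF4 cells and 1.02 in scramble cells on the log2 scale. TMEM127, the membrane protein of that complex, was lower in shATF4 than in scramble cells at 48 h (-0.29 ± 0.08, adjusted p = 0.0238), a call lost without any 1 of the 4 libraries of 48 h. Of 5 tested genes in this list 2 rose and 2 fell in shATF4 cells, and 3 rose and 2 fell in scramble cells. Of 6 tested ligands of inhibitory receptors 3 rose in each line and none fell. Called genes were thus a smaller part of these ligands than of all genes. Of all genes 58.3% were called in shATF4 cells (29.6% higher) and 60.7% in scramble cells (30.6% higher). Under upper-quartile scaling 5 rose in shATF4 cells and 6 in scramble cells. NECTIN2, a ligand of the receptor TIGIT, rose by 0.50 ± 0.10 in shATF4 cells and 0.55 ± 0.10 in scramble cells. The galectin gene LGALS9 stood at 0.17 ± 0.14 in shATF4 cells (adjusted p = 0.31) and rose by 0.47 ± 0.14 in scramble cells. CD47, the signal against phagocytosis, rose by 0.59 ± 0.10 in shATF4 cells and 0.42 ± 0.10 in scramble cells. The scramble calls of LGALS9 and CD47 were each lost without 1 library of 48 h, LGALS9 without replicate 2 and CD47 without replicate 1.

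NFYC, a subunit of the CCAAT-binding factor NF-Y, was lower in shATF4 than in scramble cells at 48 h (-0.31 ± 0.09, adjusted p = 0.0461), and CD47 was higher (0.35 ± 0.11, adjusted p = 0.0445). These calls were lost in 9 and 10 of 17 fits that left out libraries. Among 105 tested protein-coding neighbours, the genes of an MHC window on chromosome 6 from before HLA-F to past TAPBP without HLA genes, 48 rose and 25 fell at 48 h in shATF4 cells and 46 rose and 27 fell in scramble cells, each with a median of 0.26. Of all genes 58.3% were called in shATF4 cells at 48 h (29.6% higher) and 60.7% in scramble cells (30.6% higher). The median over all genes was 0.03 in each line. The medians of the 9 genes, 1.0 in shATF4 cells and 1.02 in scramble cells, lay above that of the neighbours. The 9 include B2M and NLRC5, which lie outside that window.

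The same lists were counted at 24 h of 5-FU. Higher and lower calls in shATF4 cells were 4 and 0 of 5 immunoproteasome and PA28 genes, 1 and 0 of 3 constitutive subunits, 2 and 1 of 8 loading and trimming genes, 5 and 5 of 18 transcription factors and 4 and 0 of 9 interferon receptors and kinases. In scramble cells higher and lower calls were 3 and 1 of the immunoproteasome and PA28 genes, 0 and 1 of the constitutive subunits, 1 and 3 of the loading and trimming genes, 5 and 6 of the transcription factors and 3 and 0 of the interferon receptors and kinases. Class I-like molecules and NKG2D ligands had already risen in 8 of 12 cases in each line, and class II genes in 1 of 4 in shATF4 cells and 2 of 4 in scramble cells. These counts stand beside 44.4% of all genes called in shATF4 cells at 24 h (23.2% higher) and 44% in scramble cells (21.8% higher), and those of the transcription factors and of the loading and trimming genes are close to these shares. Between the lines the lists had the most calls at 24 h, where 20.4% of all genes were called (10.5% higher). Higher and lower in shATF4 cells at 24 h were 1 and 3 of 18 transcription factors, 2 and 1 of 12 class I-like genes, 1 and 1 of 9 interferon receptors and kinases, 2 and 0 of 5 turnover genes and 17 and 6 of 105 neighbours. Of loading and trimming genes, constitutive subunits, pseudogenes and inhibitory ligands 1 each was higher there, and no immunoproteasome, PA28 or class II gene was called. In untreated cells 1 class I-like gene and 1 neighbour were higher and 2 neighbours lower in shATF4 cells, and no gene of the other pathway lists was called. At 48 h no immunoproteasome, constitutive, loading, interferon receptor, class II or pseudogene member was called between the lines, and 5 neighbours were higher and 2 lower in shATF4 cells.

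Across the 16 libraries the 9 genes were unequally alike. On the log2(CPM + 1) scale HLA-B and HLA-E had a Pearson r of 0.933, TAP1 and TAP2 had 0.857 and HLA-B and TAP1 had 0.697, while TAPBP ran from 0.263 with HLA-F to 0.523 with HLA-C. These are descriptions over libraries that share treatment and line. The genes outside the lists most like the mean of the 9 were C3, NATD1, LITAF, TUBB2A and EPHX1, with r of 0.988, 0.987, 0.986, 0.986 and 0.985. Of 12271 candidate genes 734 (5.98%) had r of at least 0.9. C3, the central complement component, averaged 7.47, 23.1 and 99.8 CPM in shATF4 cells untreated, at 24 h and at 48 h, and 4.79, 24.1 and 68.5 CPM in scramble cells.

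The authors' deposited table gave the same call and sign as here for 60 of 63 values of the 9 genes in 7 comparisons. In the authors' deposited table TAPBP in untreated shATF4 against scramble cells (0.41, adjusted p = 0.00246) and HLA-E at 48 h (0.31, adjusted p = 0.00303) passed, and TAP2 at 24 h in shATF4 cells did not (0.23, adjusted p = 0.208).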

How the data were processed

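RNA was sequenced in 16 libraries of SW620 cells, and 1 table holds all of them. The authors' deposited table gives raw counts per gene. The submitters' processing notes name featureCounts 1.5.0-p3 and the build GRCh38 (hg38), and the sources used here give no aligner, annotation release or strand setting. The deposited FPKM values were scaled by the authors and used only to compare genes per annotated length. The authors' deposited log2 fold changes and p-values were read for the 9 genes only, and their deposited normalized group means were not used. Libraries were grouped by title and labels.

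Counts were fitted with edgeR 4.0.16 (limma 3.58.1, R 4.3.3), with TMM scaling, filterByExpr, 1 fit of 6 groups and the quasi-likelihood test, and p-values were adjusted by Benjamini-Hochberg over 17309 genes and called under 0.05. The common biological coefficient of variation was 0.0847 with 10 residual degrees of freedom. Total counts of 14571611 to 17824188 limit genes of few counts most. The steps were tested on simulated data. Alternatives were median-of-ratios and upper-quartile scaling, DESeq2 1.42.0, no filter, the replicate number as a block, only the groups compared, and leaving out each library or both that stood apart. Tables and figures used Python 3.11.15, pandas 2.3.3 and matplotlib 3.10.9. Same-numbered libraries did not deviate together, with r from -0.0766 to 0.116 over 36 pairs, so they were not treated as pairs. Replicates of a group differed by 1.82 to 29.4 in chi-square per degree of freedom, more than sampling noise.

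The 9 genes and the lists were chosen with earlier results of these data known. All 9 are named in every comparison. From each list the text names the called genes with the 3 largest changes at 48 h in scramble cells and between the lines at 48 h, and values in shATF4 cells stand beside them; some list genes are not reported here. Likeness was Pearson's r of log2(CPM + 1) over protein-coding genes averaging at least 1 CPM.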

Additional observations from a re-analysis of the deposited data

Results flagged for a closer look

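The response of HLA-C to 48 h of 5-FU differed between the lines by a test of the difference itself. HLA-C rose by 0.79 ± 0.07 on the log2 scale in shATF4 cells and by 0.34 ± 0.07 in scramble cells, and the difference was 0.45 ± 0.11 (edgeR quasi-likelihood test, adjusted p = 0.0228). In shATF4 cells both 48 h libraries lay above all 3 untreated ones, and in scramble cells both 48 h libraries did too. Between the lines, shATF4 over scramble, HLA-C stood at -0.19 ± 0.07 untreated (adjusted p = 0.16) and at 0.26 ± 0.08 at 48 h (adjusted p = 0.049995). Part of the difference in response thus lay in the untreated libraries. The adjusted p ran from 0.00498 to 0.137 when 1 library was left out, and the cause was not tested.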

How the results depend on the processing

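Of 2277 log2 changes of the 9 genes under the alternatives, 2180 kept their direction and side of the threshold, 48 no longer passed, 26 newly passed and 23 changed sign, and no called value changed sign. The 5-FU responses at 48 h kept 9 of 9 calls in shATF4 cells and 8 or 9 in scramble cells when 1 library was left out. The other counts among the 9 genes ran from 6 to 7 at 24 h in each line, from 5 to 7 between 24 h and 48 h in shATF4 cells and from 3 to 7 in scramble cells. Between the lines they ran from 0 to 1 untreated, from 1 to 2 at 24 h and from 1 to 4 at 48 h. For the difference in response they ran from 0 to 1 at 24 h and from 0 to 2 at 48 h. Untreated, the count was 1, TAPBP, with no filter (adjusted p = 0.00117), with the replicate block (0.0394), with only the groups compared (0.0202) and without both libraries that stood apart (0.000327), and also without shATF4 24 h replicate 3 alone (0.00227). At 24 h between the lines it was 2 with no filter, where B2M passed (0.27, adjusted p = 0.00422).

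Calls over all genes moved by more than 1.5 times in several comparisons. The 369 genes of the 24 h difference in response became 675 with DESeq2, 798 with no filter, 644 with the replicate block, 173 with only the groups compared, 647 without both libraries and 65 to 1188 without 1. The 475 of the 48 h difference became 1204 without both and 136 to 991 without 1. Between the lines, 506 untreated calls became 891 without both and 277 to 774 without 1, 3533 at 24 h became 2189 with only the groups compared and 2067 to 3885 without 1, and 1636 at 48 h became 2748 with only the groups compared, 3021 without both and 600 to 2463 without 1. Between 24 h and 48 h in scramble cells 6621 became 4363 to 7485 without 1. Upper-quartile scaling shifted the median of all genes at 48 h by 0.13 in shATF4 cells and 0.15 in scramble cells, and the share of calls that were higher was 61.2% against 50.7% with TMM in shATF4 cells, 61.4% against 50.5% in scramble cells, and 60.1% against 49.5% in scramble cells at 24 h.

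Sign changes were in values that were not called. Between 24 h and 48 h in shATF4 cells TAP1 became -0.01 and TAPBP -0.06 without shATF4 24 h replicate 3 or both libraries, and reached up to 0.22 and 0.24 without another library. Between untreated lines B2M became 0.00 with median-of-ratios scaling, DESeq2 or no filter, -0.09 without scramble replicate 2 or both libraries and -0.03 without shATF4 replicate 1, with at most 0.05 without 1 library. TAP1 there became 0.01 with upper-quartile scaling and 0.02 without scramble replicate 3 or shATF4 replicate 1 (lowest -0.05), and TAP2 became -0.02 without scramble replicate 2 or both libraries (highest 0.11). At 48 h between the lines HLA-F became 0.21 without scramble replicate 2 and 0.19 without shATF4 replicate 1 (lowest -0.26), and NLRC5 0.08 without scramble replicate 2 (lowest -0.38). The 24 h difference in response of HLA-F became -0.17, -0.17, -0.01 and -0.03 without scramble untreated replicate 1, replicate 2, scramble 24 h replicate 1 and shATF4 untreated replicate 3, -0.13 without both libraries, and at most 0.49 without 1. The causes were not tested.

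The replicate numbers mark no stated pairing, and with the replicate block B2M also passed between 24 h and 48 h in shATF4 cells (0.33, adjusted p = 0.0153). With 2 libraries at 48 h per line, leaving 1 out leaves a lone library that is assumed to vary like the other groups. Genes of few counts, HLA-F and NLRC5, have the widest errors.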
